A study of Mus musculus with 20 samples.

Results

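CG-poor promoters outside the large receptor families were described in sperm DNA of male mice whose mothers were exposed or not to di-(2-ethylhexyl) phthalate (DEHP), a plasticizer. A promoter belonged to this set if its probe of 2200 bp held at most 10 CG sites, if it lay on chromosomes 1 to 19, and if its gene symbol neither began with Vmn, Olfr, Mir, Tas, Taar, Fpr, Krt, Def, Snor, Cyp, Ugt or Klr nor ended in Rik. The rule used annotation only and no measured value. It retained 675 of the 22480 promoters of the table, and 675 of the 2006 promoters with at most 10 CG sites. Of the other 1331, 1157 carried an excluded prefix, 123 ended in Rik and 51 lay on X or Y. The rule works on symbols, and 2 retained promoters, V1ra8 and V1rd18, carry older symbols of vomeronasal receptors, while the probe of Gm4461 covers an exon annotated as Olfr1564. Without these 3 promoters the medians given further on were 0.54 for C57BL/6J and 0.70 for FVB/N, as with them. The retained set also holds 12 promoters of other G protein-coupled receptors.

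Sperm DNA was analyzed by MBD-sequencing in 20 males that form 4 groups of 5. C57BL/6J control and FVB/N control males were born to females given corn oil only, and C57BL/6J DEHP and FVB/N DEHP males to females given DEHP in corn oil at 300 mg/kg/day by mouth, from day 9 to 19 of gestation. All males were offspring of these females and were killed at 8 weeks to collect sperm from the epididymis and vas deferens. In this assay a methyl-binding domain retains fragments with methylated CG sites, so the number of reads over a promoter depends on how many CG sites it has and on how far these are methylated. Litters of the males are not given in the labels, and brothers cannot be told apart from unrelated males.

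The values are normalized reads, given per group as the authors' mean with its SD and 1 decimal. Single libraries have no values here, so that the depth of each library is unknown and no test between animals was run. The 4 groups' means summed over all promoters to 226268 (control) and 153283 (DEHP) normalized reads for C57BL/6J, and to 141091.6 (control) and 150346 (DEHP) for FVB/N. Per the study's methods, samples of each treatment went to the sequencing provider as a separate batch and the read length differed between treatments, so treatment, batch and read length cannot be told apart in any value given here. Promoters of 9 maternally methylated imprinted genes, which are unmethylated in sperm, were used to check the cell type. In each group 6 or 7 of the 9 lay below the median of promoters within 5 CG sites of their own number. Nnat and Peg3 lay above it in all 4 groups, with Nnat at 26.5, 9.5, 18.1 and 14.6 normalized reads, and the part of other cells in this was not tested. Per the study's methods, sperm were inspected under the microscope and samples in which somatic cells were seen were not used.

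Most mammalian promoters hold dense CG sites that stay unmethylated, whereas promoters with few CG sites are usually methylated in cells that do not use the gene. Genes with CG-poor promoters are typically switched on late in 1 tissue, such as skin, placenta, liver, glands or immune cells, and many of them sit in tandem arrays made by gene duplication. In mature sperm such promoters are mostly methylated, but with so few sites they bind the capture domain weakly and give few reads.

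To show what such a promoter offers to the capture domain, the stretch of 200 bases with the most CG sites upstream of the annotated start and outside annotated exons is printed for 8 promoters, with CG in capitals and on the strand of the gene. Sequences were read from GRCm38.p6 (mm10). They cover promoters whose libraries did not overlap between control and DEHP in FVB/N (Hsd11b1, Reg1, Gm20319, V1rd18) or in C57BL/6J (Il1rn, Mrgprx1), a promoter with a log2 ratio above 1 in both strains (Lce3a) and the promoter with the lowest mean of both ratios among all 675 (Gm6654). The Hsd11b1 stretch (chr1:193264216-193264415, minus strand) lies 370 to 171 bases before the start and holds 4 of the 8 CG sites of the probe, the Reg1 stretch (chr6:78425563-78425762, plus strand) 420 to 221 bases before with 3 of 9, the Gm20319 stretch (chr16:26755771-26755970, minus strand) 468 to 269 before with 4 of 8, and the V1rd18 stretch (chr7:24002028-24002227, plus strand) 1063 to 864 before with 2 of 9. The Il1rn stretch (chr2:24335516-24335715, plus strand) lies 1344 to 1145 before the start with 3 of 10, the Mrgprx1 stretch (chr7:48027619-48027818, minus strand) 221 to 22 before with 3 of 7, the Lce3a stretch (chr3:92926935-92927134, minus strand) 904 to 705 before with 3 of 9, and the Gm6654 stretch (chr6:146648736-146648935, minus strand) 1133 to 934 before with 4 of 10.
Hsd11b1: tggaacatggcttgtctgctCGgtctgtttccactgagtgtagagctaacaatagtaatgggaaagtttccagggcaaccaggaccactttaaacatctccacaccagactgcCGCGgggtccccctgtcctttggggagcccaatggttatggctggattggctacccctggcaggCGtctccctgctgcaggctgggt
Reg1: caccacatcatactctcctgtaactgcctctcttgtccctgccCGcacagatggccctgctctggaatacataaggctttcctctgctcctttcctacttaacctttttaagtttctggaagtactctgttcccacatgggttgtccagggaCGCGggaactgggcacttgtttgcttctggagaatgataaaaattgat
Gm20319: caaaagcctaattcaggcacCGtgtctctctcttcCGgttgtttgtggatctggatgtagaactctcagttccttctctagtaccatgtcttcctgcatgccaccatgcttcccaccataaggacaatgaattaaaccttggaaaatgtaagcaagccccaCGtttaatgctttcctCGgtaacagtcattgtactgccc
V1rd18: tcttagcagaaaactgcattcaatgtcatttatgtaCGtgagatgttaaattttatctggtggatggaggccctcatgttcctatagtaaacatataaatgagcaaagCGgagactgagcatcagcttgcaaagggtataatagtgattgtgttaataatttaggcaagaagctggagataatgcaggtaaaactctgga
Il1rn: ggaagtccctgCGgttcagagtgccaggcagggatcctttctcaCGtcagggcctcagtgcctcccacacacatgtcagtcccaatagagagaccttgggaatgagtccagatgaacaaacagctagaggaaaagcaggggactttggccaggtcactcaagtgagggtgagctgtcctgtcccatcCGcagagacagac
Mrgprx1: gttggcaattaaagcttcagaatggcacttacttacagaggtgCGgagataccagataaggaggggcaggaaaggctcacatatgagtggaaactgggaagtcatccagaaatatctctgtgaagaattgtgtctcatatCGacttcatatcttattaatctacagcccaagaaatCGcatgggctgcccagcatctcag
Lce3a: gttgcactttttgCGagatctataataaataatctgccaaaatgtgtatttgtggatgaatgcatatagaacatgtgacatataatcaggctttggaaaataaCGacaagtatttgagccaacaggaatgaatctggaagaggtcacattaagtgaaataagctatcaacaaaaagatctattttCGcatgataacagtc
Gm6654: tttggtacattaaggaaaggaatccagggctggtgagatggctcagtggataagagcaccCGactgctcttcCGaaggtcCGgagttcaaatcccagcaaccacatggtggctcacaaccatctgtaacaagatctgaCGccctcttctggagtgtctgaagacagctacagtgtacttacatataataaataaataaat

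Even in these densest stretches the CG sites were 2 to 4 in 200 bases. Over whole probes the promoters had a median of 8 CG sites against 45 over all promoters, and a median of 49.5% of their bases lay within 100 bases of a CG site, against 87.2%. The nearest CG site to the start was at a median of 67 bases, against 7 bases over all promoters, and 36 of the 675 had none between 500 bases before and 200 bases after the start. The GC content was 40.5% against 48.0%, and the repeat-masked share 23.0% against 19.2%. The motif TATAAA, the core of the TATA box at which transcription of many tissue-restricted genes starts, was found on the gene strand within 50 bases before the start in 82 promoters (12.1%), against 691 of all 22480 (3.07%). GENCODE lists 577 of the 675 genes as protein coding.

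Signal over these promoters was low in every group. Their median was 1.9 normalized reads in control and 3.5 in DEHP for C57BL/6J, and 1.4 and 3.1 for FVB/N, whereas the median of all promoters was 5.0 and 5.3, and 3.0 and 4.9. The promoters with 21 to 30 CG sites, where MBD signal was highest, had medians 8.63 times those of the CG-poor set in C57BL/6J control and 3.37 times in C57BL/6J DEHP, and 6.36 and 3.65 times in FVB/N. The CG-poor set took 0.801% of the summed signal in C57BL/6J control and 1.74% in C57BL/6J DEHP, with 0.832% and 1.57% in FVB/N. The authors' SD was large beside the mean. As a median over the set it was 0.8 of the mean in C57BL/6J control and 1.11 in FVB/N control, against 0.478 and 0.518 in the DEHP groups, where means were higher. At so few reads this SD also holds the sampling of reads, which cannot be told apart from differences between males.

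In both strains most of these promoters had a higher mean in DEHP than in control. The change is given as the log2 ratio of DEHP over control after adding 1 normalized read to both means, which understates the change of promoters with few reads. Its median over the set was 0.54 for C57BL/6J and 0.70 for FVB/N, against -0.10 and 0.35 over all promoters, so that the set lay 0.64 and 0.35 above the table. A log2 ratio above 1 was reached by 107 promoters (15.9%) in C57BL/6J, where 5.09% of all promoters did so, and by 185 (27.4%) in FVB/N, where 14.4% did so. None of the 675 had a log2 ratio below -1 in either strain, compared with 10.7% of all promoters for C57BL/6J and 2.68% for FVB/N. This depended on the added read. With 0.1 read added instead, 9 promoters (1.33%, against 14.6% of all) were below -1 in C57BL/6J and 14 (2.07%, against 5.4% of all) in FVB/N. The DEHP mean lay above the control mean in 545 promoters (80.7%) in C57BL/6J, against 43.5% of all, and in 585 (86.7%) in FVB/N, against 69.1% of all. For a single promoter the error was of the same size as the change, with a median SE of the log2 ratio of 0.41 for C57BL/6J and 0.45 for FVB/N.

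The ratio differed between classes of CG number over the whole table, without a single direction. In C57BL/6J the median was 0.57 for promoters with 1 to 4 CG sites, 0.62 for 5 to 6, 0.65 for 7 to 8 and 0.59 for 9 to 10, then 0.30 for 11 to 15, -0.07 for 16 to 20, -0.40 for 21 to 30, -0.21 for 31 to 60 and -0.17 for 61 to 303. In FVB/N it was 0.50, 0.67, 0.82 and 0.87 in the same first 4 classes, then 0.82, 0.59, 0.28, 0.25 and 0.23 in the others. The 1331 CG-poor promoters that the rule left out, mostly of olfactory and vomeronasal receptors, had medians of 0.66 and 0.79, above those of the retained set in both strains. Within the retained set, the promoters with 1 to 4 CG sites had medians of 0.42 and 0.41 (n = 54), and those with 9 to 10 had 0.58 and 0.82 (n = 281). In C57BL/6J the median signal was 1.1 normalized reads in control and 1.8 in DEHP at 1 to 4 CG sites, and 2.8 and 4.6 at 9 to 10. The added read lowers the ratio more where means are lower, so nothing is read from the C57BL/6J gap between these classes.

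**Figure D1:**
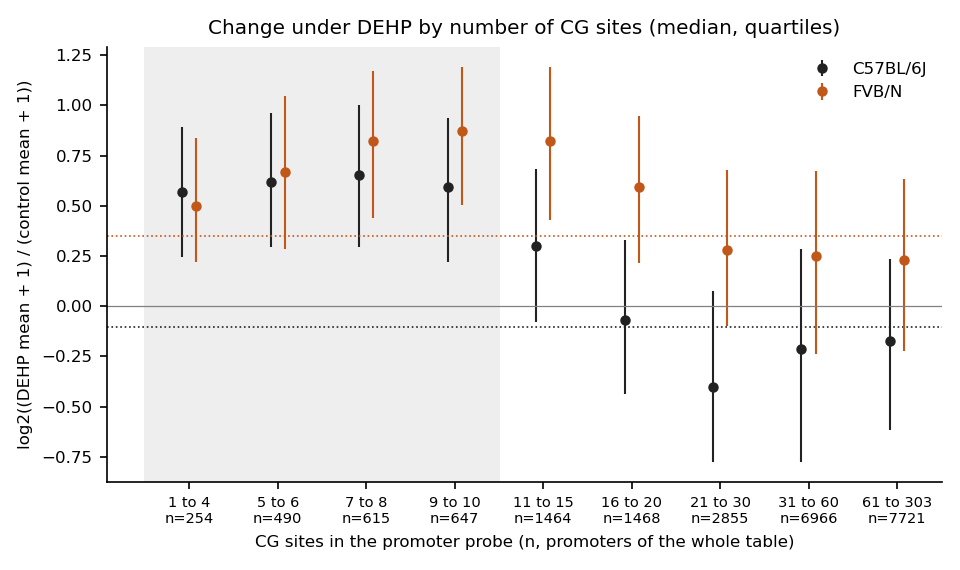
Median log2 ratio of DEHP over control (y axis) of all 22480 promoters by number of CG sites (x axis), in C57BL/6J (black) and FVB/N (orange), with quartiles as bars and the median of all promoters as dotted lines; the shaded classes hold at most 10 CG sites. C57BL/6J medians go from 0.65 at 7 to 8 CG sites down to -0.40 at 21 to 30 and back to -0.17 at 61 to 303, and FVB/N medians from 0.50 at 1 to 4 up to 0.87 at 9 to 10 and down to 0.23.

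How the groups were scaled moved these values, but the set stayed above the table. When the means were scaled to equal sums, the medians of the set were 0.89 and 0.67 and those of all promoters 0.33 and 0.29. With equal medians of all promoters, the set had 0.46 and 0.27, and the table -0.16 and -0.18. The set thus lay between 0.55 and 0.64 above the table in C57BL/6J and between 0.35 and 0.45 in FVB/N. By level, log2 ratios above 1 were seen in C57BL/6J in 17.8% of the 225 promoters with the lowest level, 20.9% of the middle 225 and 8.89% of the highest 225. In FVB/N the shares were 12.9%, 31.1% and 38.2%. These classes were divided at means over the 4 groups of 1.8 and 3.33 normalized reads. Level thus holds the same means as the ratios, and the added read makes a ratio above 1 harder to reach at low level. For these reasons nothing is read from the shares by level.

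The same promoters were then compared between the strains. The DEHP mean was above the control mean in both strains in 483 promoters (71.6%, against 37.3% of all promoters), and below it in both in 23. It was above in 80.7% and 86.7% of the set in the single strains, shares that by themselves make a large overlap, so nothing is read from it. The log2 ratio was above 1 in both strains in 33 promoters (4.89%, against 2.07% of all). It was above 1 in 15.9% and 27.4% of the set in the single strains. These shares by themselves give an overlap of about this size, so nothing is read from it either. Across the 675 promoters the ratios of both strains had a Pearson correlation of 0.17 and a Spearman correlation of 0.15, against a Pearson correlation of 0.56 over all promoters. The strains share no control libraries, but promoters are not independent samples, and the number of CG sites is common to both axes. The 33 promoters, which were chosen by their values, come from many families, among them Cts7, a placental cathepsin, Crisp4, a cysteine-rich protein of the epididymis, Serpini2, a serpin, and Nat1, an arylamine acetyltransferase.

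In Cts7, signal was 0.7 ± 1.1 (SD, n = 5) in C57BL/6J control and 4.6 ± 2.1 in C57BL/6J DEHP, and 0.4 ± 0.6 and 2.9 ± 1.4 in FVB/N. The log2 ratio was 1.72 ± 0.48 (SE) and 1.48 ± 0.36. For the promoters that follow, values with ± are the control mean and then the DEHP mean of a strain with the SD of 5 males, and log2 ratios, in brackets or named as ratios, carry their SE. Gm13124 had the highest DEHP means among the 12 promoters with the largest mean ratio, with 2.9 ± 3.4 against 10.5 ± 2.6 in C57BL/6J and 1.6 ± 2.5 against 7.9 ± 2.3 in FVB/N. Also in this group, Catsperb, a subunit of the sperm calcium channel, went from 0.5 ± 0.6 to 2.3 ± 1.2 in C57BL/6J and from 0.3 ± 0.6 to 3.8 ± 1.5 in FVB/N. In all of these except Gm13124 in C57BL/6J the control means were below 2 normalized reads, where 1 decimal and a few reads decide the ratio.

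**Figure D2:**
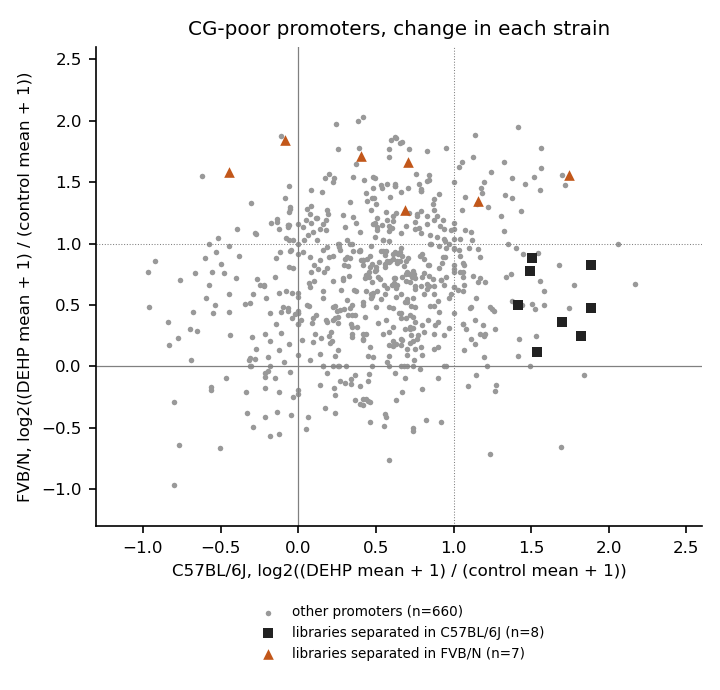
Log2 ratio of DEHP over control in C57BL/6J (x axis) and FVB/N (y axis) for the 675 promoters; black squares and orange triangles are promoters whose 5 DEHP libraries must all lie above the 5 control libraries in C57BL/6J (n = 8) or FVB/N (n = 7), and dotted lines mark a log2 ratio of 1. Most points lie above 0 on both axes, and no promoter is separated in both strains.

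Although single values were not used, a mean and SD bound them: none of 5 values can lie more than 1.79 SD from their mean. Where the bounds of both groups do not meet, every DEHP library lay above or below every control library, and the count of such promoters is a lower limit. DEHP libraries were separated above controls in 8 promoters in C57BL/6J (1.19%, against 0.249% of all promoters) and in 7 in FVB/N (1.04%, against 0.774%). These counts depended on the scaling: with equal medians 1 promoter was separated above in FVB/N (0.125% of all promoters were), and with equal sums 20 were in C57BL/6J (1.02% of all were). Separation below controls was found in 0 of 675 in either strain. Over all promoters, 1.42% were separated below in C57BL/6J and 0.859% in FVB/N, while the 1331 CG-poor promoters left out by the rule also had 0. In most of the set 1.79 SD exceeded the control mean. Such promoters could not be separated below, so nothing is read from this 0. No promoter was separated in both strains, and the 15 are named here after their values were seen.

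Of the 8 promoters separated in C57BL/6J, 2 belong to the C-type lectins, Clec9a and Clec4e. Il1rn, the interleukin-1 receptor antagonist, had 1.4 ± 0.5 in control and 5.8 ± 1.6 in DEHP, a log2 ratio of 1.5 ± 0.20, and in FVB/N 4.2 ± 3.6 and 8.6 ± 2.1. Clec9a, a lectin of dendritic cells, had 1.2 ± 0.9 and 5.2 ± 0.9 (1.49 ± 0.28), and Clec4e, which senses mycobacterial lipids, 0.2 ± 0.5 and 2.2 ± 0.4 (1.42 ± 0.28). In FVB/N these lectins had overlapping groups, with 1.4 ± 2.1 and 3.1 ± 0.8 for Clec9a and 0.7 ± 1.1 and 1.4 ± 1.0 for Clec4e. Sprr2f, a small proline-rich protein of skin and uterus, had 1.4 ± 1.5 and 6.8 ± 1.3 (1.70 ± 0.42).

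Naip5, a sensor of bacterial flagellin, had 0.5 ± 0.6 and 4.3 ± 1.1 (1.82 ± 0.29) in C57BL/6J, whereas FVB/N had 0.6 ± 1.0 and 0.9 ± 0.7. Its probe was 88.0% repeat-masked, and 54.6% of its sequences of 51 bases were unique in the genome. Esp18, an exocrine-gland-secreting peptide, Mrgprx1, an itch receptor of sensory neurons, and the predicted gene Gm10319 were listed at 0 with an SD of 0 in C57BL/6J control. Their C57BL/6J DEHP means were 1.9 ± 0.8, 2.7 ± 1.1 and 2.7 ± 1.1, so no fold is given.

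Among the 7 promoters separated in FVB/N, Hsd11b1, the enzyme that regenerates active glucocorticoids, had the highest level, with 3.1 ± 1.2 in control and 9.4 ± 1.8 in DEHP (1.34 ± 0.22). It was also higher in C57BL/6J DEHP, at 10.6 ± 4.4 against 4.2 ± 0.9 (1.16 ± 0.27), where the bounds of the libraries met. V1rd18 was the other FVB/N promoter with a C57BL/6J ratio above 1: 0.7 ± 0.6 and 4.0 ± 0.4 in FVB/N (1.56 ± 0.23), 0.7 ± 1.1 and 4.7 ± 1.7 in C57BL/6J (1.75 ± 0.46). A pair of adhesion genes of the cadherin superfamily were separated, Cdh18 with 1.6 ± 1.0 and 5.3 ± 0.8 (1.28 ± 0.26) and Dsc1, a desmosomal cadherin of skin, with 1.9 ± 1.4 and 8.2 ± 1.2 (1.67 ± 0.32). Reg1, a secreted lectin of the pancreas, had 1.2 ± 0.9 and 6.2 ± 1.0 (1.71 ± 0.28).

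Of the 15 separated promoters, Gm20319 and Usp17ld had the widest gaps between the ratios of the strains. Gm20319 had 1.6 ± 1.1 and 6.8 ± 0.7 in FVB/N (1.58 ± 0.28) but 5.0 ± 1.6 and 3.4 ± 1.5 in C57BL/6J (-0.45 ± 0.28). Usp17ld, a deubiquitinating enzyme of a tandem family, had 0.7 ± 1.1 and 5.1 ± 1.1 in FVB/N (1.84 ± 0.43) and 5.9 ± 2.0 and 5.5 ± 2.0 in C57BL/6J (-0.09 ± 0.27).

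**Figure D3:**
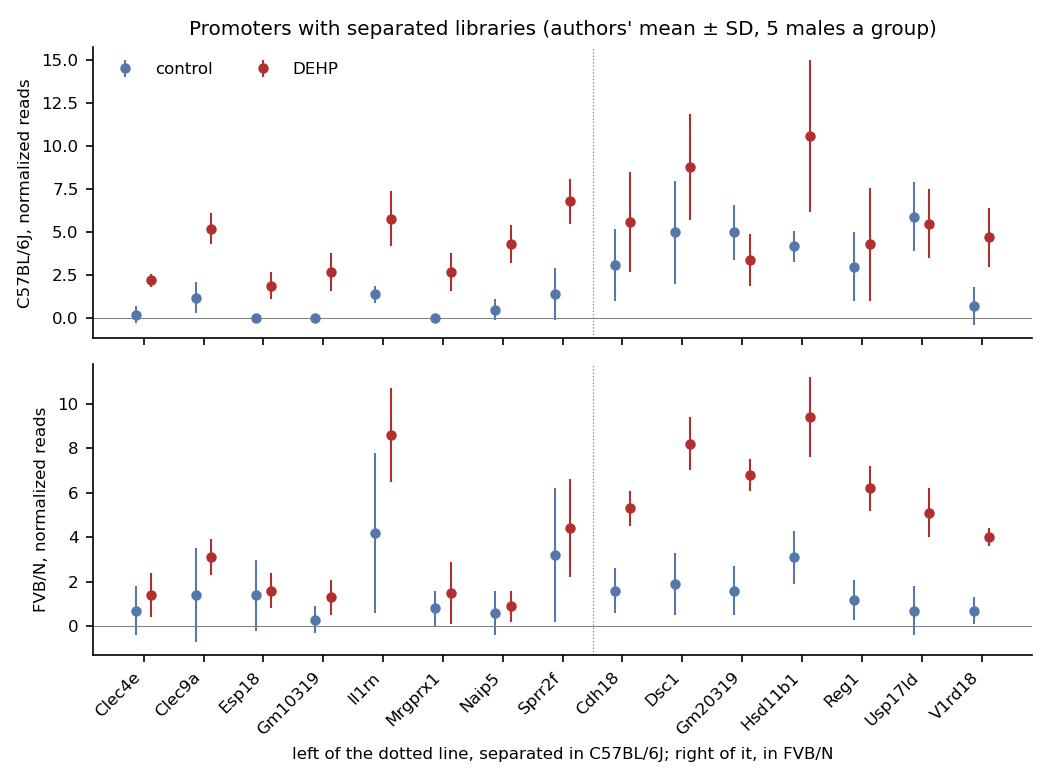
Normalized reads (y axis, authors' mean ± SD, 5 males a group) of the 15 promoters with separated libraries in C57BL/6J (top) and FVB/N (bottom), control in blue and DEHP in red. The 8 promoters left of the dotted line are separated in C57BL/6J and the 7 right of it in FVB/N, and DEHP means are above control means in every panel except for Gm20319 and Usp17ld in C57BL/6J.

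The higher DEHP signal was spread over the families rather than held by one of them. Symbol prefixes put 426 promoters in 24 families, 22 of which had at least 5 members, and 249 promoters in none. All 22 family medians were above 0 in both strains, between 0.17 and 0.94 in C57BL/6J and between 0.22 and 1.07 in FVB/N. With equal medians of all promoters 1 of them, in FVB/N, turned to -0.05. The median of all promoters was -0.10 in C57BL/6J but 0.35 in FVB/N, where a value above 0 thus does not set a family apart. Solute carriers (0.22) and immunoglobulin-like immune receptors (0.25) lay below all promoters in FVB/N. In C57BL/6J 20 of the 22 and in FVB/N 19 of the 22 lay inside the quartiles of all 675 promoters, which were 0.15 to 0.84 and 0.31 to 1.05. Leaving out any 1 of the 24 families kept the median of the rest between 0.53 and 0.55 in C57BL/6J and between 0.69 and 0.71 in FVB/N. Apart from the 119 predicted genes, each family held at most 4.44% of the set. Leaving it out could therefore move the median little, whatever its values. Promoters of no listed family held 36.9% of the set, 27.1% of those with a ratio above 1 for C57BL/6J and 38.4% for FVB/N. The families and their order are a description of symbols, since members of a family share sequence and sometimes reads.

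**Figure D4:**
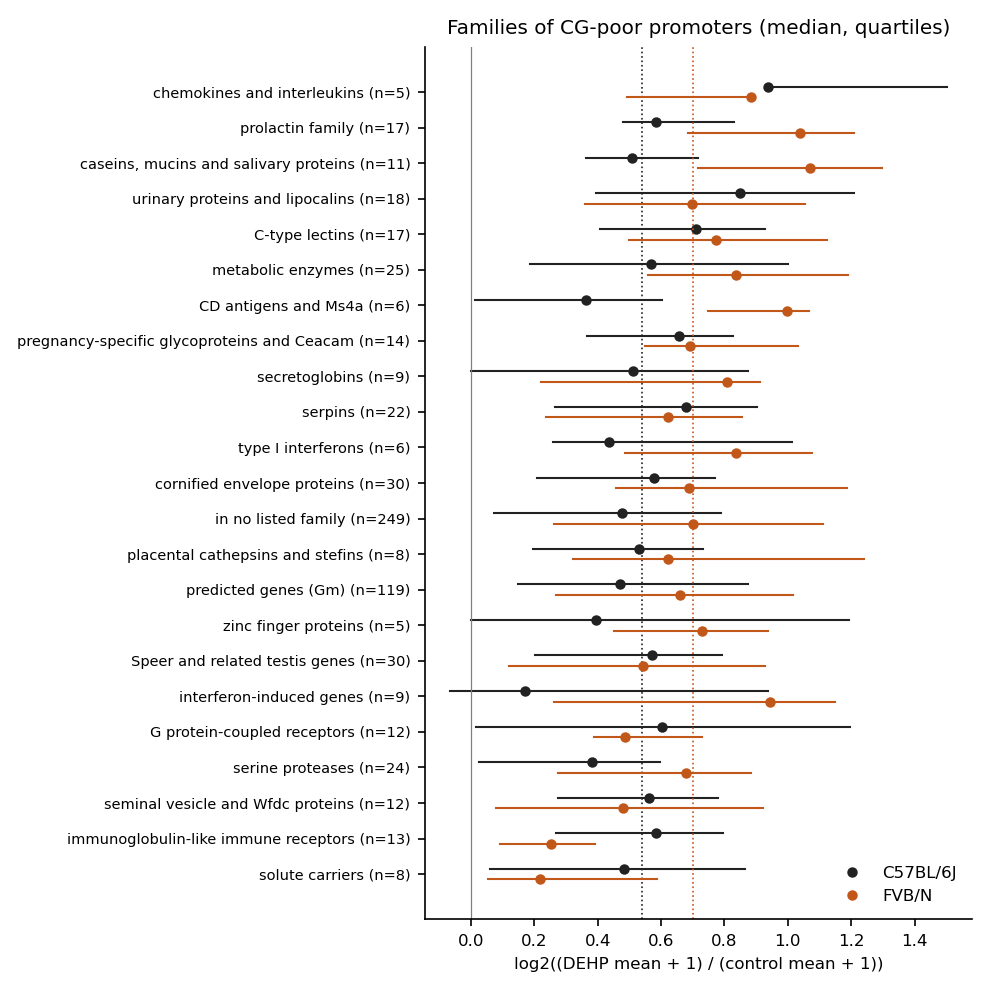
Median (points) and quartiles (bars) of the log2 ratio of DEHP over control (x axis) for each family with at least 5 promoters and for promoters of no listed family, in C57BL/6J (black) and FVB/N (orange), with dotted lines at the medians of the whole set, 0.54 and 0.70. Every family median is above 0 in both strains, where the medians of all promoters are -0.10 and 0.35, and most bars cross the dotted line of their strain.

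Of 3 families with members made in the placenta, the prolactin family lay above the set's median in FVB/N and the other two slightly below it. The prolactin family (17 promoters), hormones of pituitary and placenta encoded in 1 array, had a median of 0.58 for C57BL/6J and 1.04 for FVB/N, with DEHP above control in 16 and in all 17, and with a ratio above 1 in 3 and in 9 of them. Prl8a6 had 1.2 ± 0.8 and 3.8 ± 2.3 in C57BL/6J (1.13 ± 0.39) and 0.5 ± 0.6 and 3.9 ± 2.6 for FVB/N (1.71 ± 0.43). Prl itself, pituitary prolactin, had 2.8 ± 1.3 and 5.5 ± 1.8 (0.77 ± 0.28), and 1.4 ± 1.6 and 5.7 ± 3.0 (1.48 ± 0.52). Among prolactin promoters with a mean of at least 1 normalized read over the 4 groups, Prl8a8 was the lowest, with ratios of 0.47 ± 0.37 and 0.69 ± 0.54.

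Pregnancy-specific glycoproteins and their Ceacam relatives, immunoglobulin-like proteins secreted by trophoblast, had medians of 0.66 and 0.69 over 14 promoters, with DEHP above control in 13 and in all 14. Within this family the Psg promoters had medians of 0.73 and 0.56 (n = 9), and the Ceacam promoters 0.42 and 1.10 (n = 5). Ceacam12 had 1.2 ± 0.9 and 4.5 ± 2.5 in C57BL/6J (1.32 ± 0.39) and 1.1 ± 0.1 and 3.5 ± 1.1 for FVB/N (1.10 ± 0.16). Placental cathepsins and stefins, proteases and their inhibitors, had medians of 0.53 and 0.62 over 8 promoters. Next to Cts7, Cts8 had ratios of 0.62 ± 0.43 and 1.87 ± 0.44, while Csta1, a stefin, had 10.6 ± 2.2 and 7.0 ± 3.1 in C57BL/6J (-0.54 ± 0.28).

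The largest cluster held mostly skin genes. On chromosome 3, 38 promoters between positions 92012583 and 93826219 of mm10 lie at the epidermal differentiation region, where genes of the cornified envelope lie side by side. They include the sperm gene Smcp, the predicted gene Gm4858, and Tdpoz2 and Tdpoz3, which the symbol families place with testis genes. The median of the 38 was 0.53 for C57BL/6J and 0.76 for FVB/N, with DEHP above control in 29 and in 37, and with a ratio above 1 in 4 and in 13. The late cornified envelope genes (Lce, 17 promoters) had medians of 0.51 and 0.88 and ratios above 1 in 1 and in 8. The small proline-rich genes (Sprr, 8 promoters) had medians of 0.61 and 0.46 and ratios above 1 in 2 and in 1.

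Lce3a was the member with a ratio above 1 in both strains, with 0.9 ± 0.9 and 3.5 ± 1.3 in C57BL/6J (1.24 ± 0.36) and 0.2 ± 0.5 and 2.6 ± 1.5 for FVB/N (1.58 ± 0.38). Lce1f had 1.4 ± 1.4 and 7.5 ± 1.9 in FVB/N (1.82 ± 0.40), against 3.6 ± 2.3 and 6.3 ± 1.6 in C57BL/6J (0.67 ± 0.35). Lce1b showed the widest gap between strains in the cluster, with 0.2 ± 0.4 and 3.4 ± 1.3 in FVB/N (1.87 ± 0.29) and 3.1 ± 2.7 and 2.8 ± 0.5 in C57BL/6J (-0.11 ± 0.43). Ivl, involucrin, was the lowest at -0.70 ± 0.56 in C57BL/6J, with 1.6 ± 1.7 and 0.6 ± 0.9, and at 0.30 ± 0.56 in FVB/N. In this cluster the sequences of 51 bases were unique in the genome in a median of 100% per promoter.

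**Figure D5:**
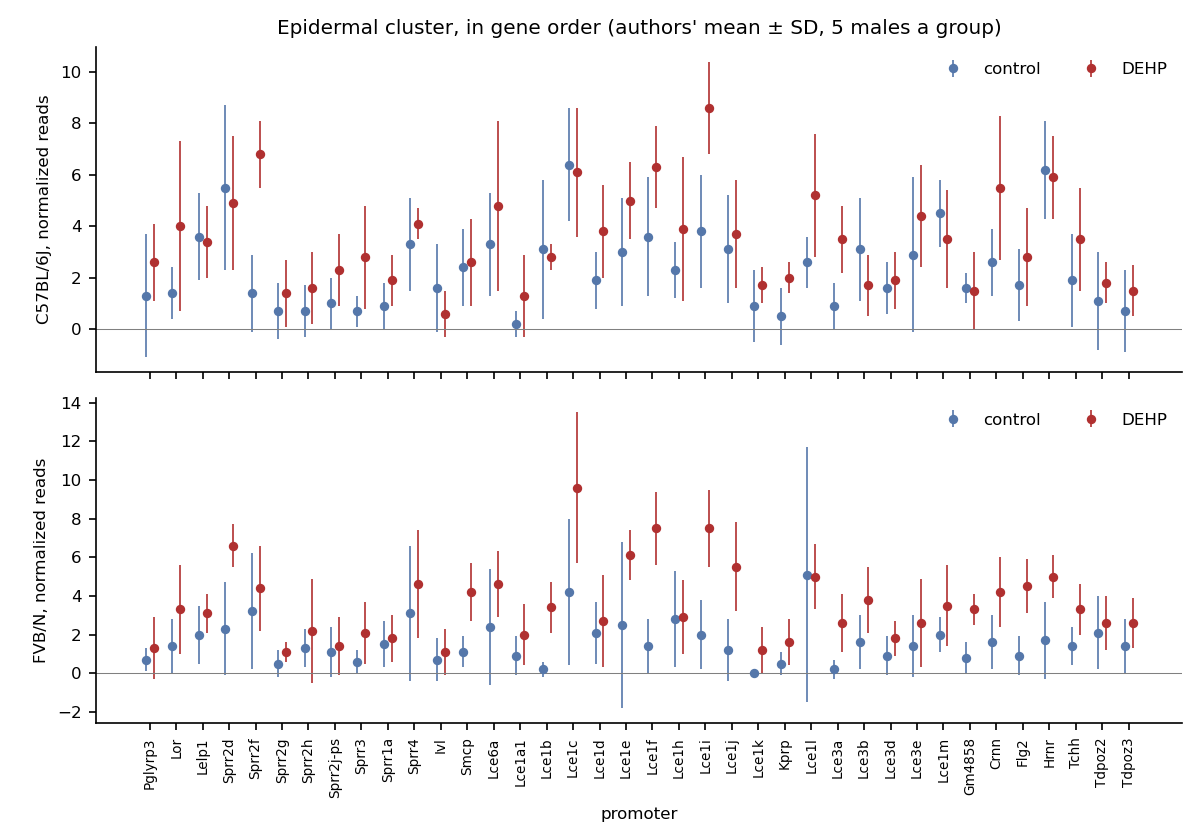
Normalized reads (y axis, authors' mean ± SD, 5 males a group) of the 38 promoters of the epidermal cluster in their order along chromosome 3 (x axis), in C57BL/6J (top) and FVB/N (bottom), control in blue and DEHP in red. DEHP means are above control means in 29 of 38 promoters for C57BL/6J and in 37 of 38 for FVB/N, while most bars of the SD overlap.

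Immune genes were uneven. C-type lectins (17 promoters), which bind sugars on microbes and dying cells, had medians of 0.71 for C57BL/6J and 0.77 for FVB/N. Within them, a cluster of 5 promoters at the Clec4 genes of chromosome 6 had medians of 1.0 and 0.64, and the 5 Reg promoters, also on chromosome 6, had 0.58 and 1.71, the highest FVB/N median of any cluster of at least 5. Reg3a and Reg3d share their reads in part because their probes overlap. Clec4b2 had ratios of 1.43 ± 0.46 and 1.26 ± 0.27, from 1.0 ± 1.0 to 4.4 ± 2.8 in C57BL/6J and from 1.5 ± 0.8 to 5.0 ± 1.6 in FVB/N. Reg2, the lowest of its cluster, had 0.29 ± 0.65 and 0.72 ± 0.79.

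Interferon-induced genes had the lowest family median in C57BL/6J, 0.17, and one of the higher medians in FVB/N, 0.94, over 9 promoters. The 6 guanylate-binding protein (Gbp) promoters, GTPases against intracellular pathogens, had 0.05 and 0.93. They cover 5 regions, because probes overlap. Gbp9 had 2.2 ± 2.5 and 2.6 ± 1.9 in C57BL/6J (0.17 ± 0.61), and was listed at 0 in FVB/N control with 1.9 ± 1.6 in FVB/N DEHP. Type I interferons, the antiviral cytokines, had medians of 0.44 and 0.84 over 6 promoters, with Ifna1 at 1.18 ± 0.35 and 1.42 ± 0.63 and Ifna9 at -0.45 ± 0.36 and 0.98 ± 0.26. Chemokines and interleukins had the highest C57BL/6J median, 0.94, over 5 promoters, with 0.88 in FVB/N. Il24, the lowest of them, had 0.23 ± 0.28 and 0.49 ± 0.71. Immunoglobulin-like receptors went the other way, with 0.58 for C57BL/6J and 0.25 for FVB/N over 13 promoters. Of these the Skint promoters, genes of thymus and skin, had 0.66 and 0.13 (n = 9), with 3 of the 9 listed at 0 in both FVB/N groups. CD antigens and Ms4a proteins, markers of leukocytes, had 0.36 and 1.0 over 6 promoters.

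Secreted proteins of glands made up several families. The family of urinary proteins (Mup) and lipocalins (Lcn), carriers of pheromones and other ligands, also holds 11 Esp promoters of tear and saliva peptides. Its 18 promoters had medians of 0.85 and 0.70, with a ratio above 1 in 6 for C57BL/6J and in 5 for FVB/N. Mup3 had 1.9 ± 1.6 and 6.9 ± 3.3 in C57BL/6J (1.45 ± 0.45), and Mup5 had 0.9 ± 0.9 and 5.5 ± 3.7 in FVB/N (1.77 ± 0.48). The 11 Esp promoters, on chromosome 17, had medians of 0.85 and 0.52, the first of which equals the C57BL/6J median of the whole family. Esp38 was at 1.30 ± 0.64 and 1.22 ± 0.37, and Esp5 at -0.05 ± 0.45 and -0.04 ± 0.44. Caseins, mucins and salivary proteins had the highest family median in FVB/N, 1.07, with 0.51 in C57BL/6J, and a ratio above 1 in 0 and in 6 of 11 promoters. Smr3a, a salivary peptide, had 1.3 ± 1.4 and 4.2 ± 1.5 in FVB/N (1.18 ± 0.43), and 2.8 ± 2.6 and 5.4 ± 1.1 in C57BL/6J (0.75 ± 0.46). Secretoglobins had 0.51 and 0.81 (n = 9), and seminal vesicle and Wfdc proteins 0.56 and 0.48 (n = 12).

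Proteases and their inhibitors stood on different sides of the set in C57BL/6J. Serine proteases had medians of 0.38 and 0.68 over 24 promoters, with a ratio above 1 in 1 for C57BL/6J and in 4 for FVB/N. The 9 kallikrein promoters of chromosome 7, proteases of salivary gland, had the lower medians of 0.07 and 0.49. Klk1b16 had 0.5 ± 0.6 and 3.9 ± 2.0 in FVB/N (1.71 ± 0.37), while Klk1b7-ps had 10.5 ± 6.3 and 6.8 ± 3.3 in C57BL/6J (-0.56 ± 0.45) and 6.2 ± 6.1 and 5.3 ± 1.6 for FVB/N. A cluster of 14 trypsin-like and seminal genes on chromosome 6 had 0.43 and 0.19. Serpins, inhibitors of serine proteases, had 0.68 and 0.62 over 22 promoters, with a ratio above 1 in 5 and in 4. Serpina3k, made by liver, had 2.6 ± 2.5 and 11.3 ± 5.4 in C57BL/6J (1.77 ± 0.53) and 3.3 ± 3.9 and 5.8 ± 2.8 for FVB/N (0.66 ± 0.64). Serpina3f and Serpina3g have the same 4 means, as their probes share a region.

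Germ line genes were also among the CG-poor promoters. The family grouped around Speer and other testis symbols also holds Oog genes of the oocyte, Zscan4 and Obox genes of the early embryo and Crisp genes of the male tract, and is thus not made of testis genes alone. It had medians of 0.57 for C57BL/6J and 0.54 for FVB/N over 30 promoters, with a ratio above 1 in 4 and in 6. Of these, Crisp4 had 0.5 ± 0.6 and 3.3 ± 1.5 in C57BL/6J (1.52 ± 0.34) and 0.2 ± 0.5 and 2.5 ± 1.8 for FVB/N (1.54 ± 0.43). Speer4a and Speer4c, genes of round spermatids in a repeated array, had ratios of 0.66 ± 0.36 and 1.82 ± 0.31, and of 1.54 ± 0.40 and 0.92 ± 0.57, but only 54.6% and 34.3% of their 51-base sequences were unique. Adam26a, a testis metalloprotease-like gene, had 0.06 ± 0.69 and -0.42 ± 0.70. The authors' annotation marks 36 promoters for reproduction, for a sperm part or for the sperm proteome, and these had medians of 0.38 and 0.91, with a ratio above 1 in 16.7% and 36.1%. Acrv1, an acrosomal protein, had 0.2 ± 0.5 and 3.9 ± 2.0 in FVB/N (2.03 ± 0.38) and 1.4 ± 1.0 and 2.2 ± 1.7 in C57BL/6J (0.42 ± 0.44). Spam1, the sperm hyaluronidase, with 1 CG site in its probe, had 3.3 ± 1.3 and 1.4 ± 1.6 in C57BL/6J (-0.84 ± 0.47) and 1.1 ± 1.3 and 1.7 ± 1.8 for FVB/N.

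Metabolic enzymes had medians of 0.57 and 0.84 over 25 promoters, with a ratio above 1 in 6 and in 8. Besides Hsd11b1, Acsm2, an acyl-CoA synthetase of liver and kidney, had 3.0 ± 1.7 and 7.9 ± 3.8 in C57BL/6J (1.15 ± 0.39) and 1.8 ± 1.4 and 6.0 ± 1.6 for FVB/N (1.32 ± 0.35). Nat1 had 0.5 ± 0.6 and 3.0 ± 2.0 (1.42 ± 0.41), and 0.4 ± 1.0 and 4.4 ± 2.9 (1.95 ± 0.58). Akr1c13, an aldo-keto reductase, had 5.5 ± 2.5 and 3.3 ± 1.7 in C57BL/6J (-0.60 ± 0.36). Solute carriers had medians of 0.48 and 0.22 (n = 8), the lowest in FVB/N. G protein-coupled receptors that the rule left in had 0.60 and 0.49 (n = 12), with a ratio above 1 in 4 for C57BL/6J and in 1 for FVB/N. Zinc finger proteins had 0.40 and 0.73 (n = 5), and Zfp534, with ratios of 1.19 ± 0.29 and 1.5 ± 0.41, had 18.5% of its 51-base sequences unique. Predicted genes without a name of their own were 119 promoters with medians of 0.47 and 0.66, and held 20.6% of the ratios above 1 for C57BL/6J and 16.2% for FVB/N, against 17.6% of the set.

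Position in a gene cluster made little difference to the medians. With at least 3 promoters whose starts lay at most 500 kb apart, 63 clusters held 394 promoters and 281 lay outside. Clustered promoters had medians of 0.55 for C57BL/6J and 0.67 for FVB/N, and the others 0.53 and 0.73. A ratio above 1 was found in 15% and 24.9% of clustered promoters, and in 17.1% and 31% of the others. The cluster median was above 0 in 61 of 63 clusters in each strain. In the 32 clusters with at least 5 promoters it lay between 0.07 and 1.0 in C57BL/6J and between 0.14 and 1.71 in FVB/N.

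By chromosome, the median was above 0 on all 19 in both strains, with 10 to 88 promoters each. It lay between 0.03 and 0.69 in C57BL/6J and between 0.44 and 1.03 in FVB/N, against -0.10 and 0.35 over all promoters. Among the clusters with at least 5 promoters, those at the upper end in C57BL/6J were the Clec4 genes (1.0), a group of salivary Prb and Prh genes on chromosome 6 (0.75) and the Esp genes with their neighbours on chromosome 17 (0.74, 15 promoters). Among the same clusters in FVB/N, the Reg genes (1.71) were followed by a Gbp cluster on chromosome 5 (1.15) and the prolactin cluster on chromosome 13 (1.04, 16 promoters). The Reg, Gbp and Prb clusters each hold 5 promoters over 4 regions, because probes overlap. Overlapping probes share reads and weigh on these medians, and the order with each region counted once was not computed. No difference between clusters was tested.

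A few promoters stood apart in level. Gm15319 had the highest means, with 33.9 ± 5.3 and 41.0 ± 9.6 for C57BL/6J and 33.2 ± 41.2 and 64.9 ± 13.1 for FVB/N, but 3.7% of its 51-base sequences were unique. Smok2b, a sperm motility kinase, had 25 ± 8.5 and 17.8 ± 2.6 in C57BL/6J (-0.47 ± 0.23) and 18.6 ± 9.9 and 17.3 ± 3.8 for FVB/N (-0.10 ± 0.35). Mroh2a differed in its control level, with 22.9 ± 10.8 for C57BL/6J and 3.9 ± 2.5 for FVB/N, and had 26.9 ± 4.9 and 12.9 ± 2.4 in the DEHP groups. Timd4, a receptor for dying cells on macrophages, had 15.1 ± 1.6 and 11.7 ± 5.2 in C57BL/6J (-0.34 ± 0.27), and 6.6 ± 4.2 and 9.8 ± 3.6 for FVB/N (0.51 ± 0.42). Gip, an incretin hormone of the gut, had 11.9 ± 2.7 and 11.7 ± 2.2 in C57BL/6J (-0.02 ± 0.18), and 7.7 ± 4.8 and 10.7 ± 2.2 for FVB/N (0.43 ± 0.38).

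Against the trend, Gm6654 had lower means in DEHP in both strains, 12.6 ± 3.2 in control and 6.8 ± 1.9 in DEHP in C57BL/6J (-0.80 ± 0.22) and 11.7 ± 4.0 and 5.5 ± 1.4 for FVB/N (-0.97 ± 0.25). This was the lowest mean of both ratios among the 675, and the bounds of its libraries met. At the other end of the scale, 12 promoters were listed at 0 in C57BL/6J control and 1 in C57BL/6J DEHP, and 32 in FVB/N control and 15 in FVB/N DEHP. In 11 promoters both FVB/N groups were listed at 0, whereas 0 promoters were listed at 0 in both C57BL/6J groups. Among the 11 are Nlrp1a, an inflammasome sensor with 2.1 ± 1.5 and 6.2 ± 1.4 in C57BL/6J, and Skint3 with 1.4 ± 1.2 and 2.8 ± 1.6. The table gives 60 variants between the strains for Nlrp1a and 0 for Skint3, and the part of sequence differences in these zeros was not tested.

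The ratio was also compared between promoters that differ in features outside the rule. Promoters with TATAAA before the start had medians of 0.58 and 0.60 (n = 82), and those without 0.53 and 0.70 (n = 593). A variant between the strains was annotated in 338 promoters (50.1%, against 46.1% of all), which had medians of 0.56 and 0.61, while the other 337 had 0.51 and 0.77. In 190 promoters every sampled 51-base sequence was unique in the genome, and these had medians of 0.61 and 0.84, while 27 promoters with fewer unique than repeated sequences had 0.35 and 0.34. Expression in testis, from an independent dataset that the authors added, was given for 387 promoters with a median of 3.98 against 5.82 over all promoters (log2 scale). The 193 promoters above this median had ratios of 0.61 and 0.81, and the other 194 had 0.49 and 0.73.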

How the data were processed

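MBD-sequencing of sperm DNA was performed in 20 males, 5 per group. Per the study's methods, the authors aligned read-pairs to mm10 with Bowtie 0.12.7, removed pairs with several positions, over 600 bp apart or without CG in the insert, counted pairs over promoter probes and normalized them with edgeR. The deposited signal is the authors' group mean and SD of normalized reads. The authors' table also holds fold changes, p-values and FDR of their own comparisons, which were not used, and testis expression whose deposited values were read as log2 from their range, since the scale is not stated. Depth per library is unknown.

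Log2 ratios used a pseudocount of 1, with SE by the delta method. Libraries were called separated when bounds of 1.79 SD, widened by 0.05 for rounding, did not meet. No test was run. Calculations used Python 3.11.15, numpy 2.4.6, pandas 2.3.3, scipy 1.17.1, numba 0.67.0, pysam 0.24.0 and matplotlib 3.10.9, and were tested on simulated data. CG sites were counted again in GRCm38.p6, with the same number in 669 of 675 probes. Members, families and lists were chosen with earlier results of these data known. Named promoters were taken from those with the 3 largest and the lowest mean ratio of a family or cluster, at a mean level of at least 1, the 5 highest in level, and the 5 with the largest strain difference in each direction, and not all promoters that this rule lists are described. Members separated in both strains would also have been named, but there were 0. The 15 separated in 1 strain, members above 1 in both, sperm genes and single promoters listed at 0 were chosen after their values were seen. A further promoter is not reported here.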

Additional observations from a re-analysis of the deposited data

How the results depend on the processing

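The median ratio of the CG-poor promoters was above 0 in both strains under every alternative run. With a pseudocount of 0.1 the share with a ratio above 1 was 33.6% for C57BL/6J and 52.1% for FVB/N, against 11.5% and 25.8% of all promoters. With means scaled to equal sums it was 40.6% in C57BL/6J (14.7% of all), with 20 promoters separated above control (1.02% of all). With equal medians it was 9.78% in FVB/N (3.86% of all), with 1 separated (0.125% of all). Taking the fold from the median of all promoters, a setting chosen after seeing the data, gave 11.9% for FVB/N and 22.1% for C57BL/6J. Without the matching share of the whole table, these values cannot show whether the set still exceeded it. A bound of 1 SD, which does not show that all libraries are separated, gave 53 and 88 promoters above and 2 and 1 below control. The shares over all promoters at this bound are not given, so nothing is read from these counts. The FVB/N median of solute carriers was -0.05 with equal medians. Gaps of 200 kb and 1 Mb gave 59 and 66 clusters. Leaving out single libraries was not run, as the values used are group means. No paired analysis was possible because the values used are group means without single libraries. Few reads per promoter and unknown depth limit all single ratios.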

Other observations

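Among the other sperm genes of the set, Akap3, an anchoring protein of the sperm tail, had ratios of 1.38 for C57BL/6J and 0.53 for FVB/N, and Eqtn, an acrosomal membrane protein, 0.83 and 1.16. Smcp, a protein of the mitochondrial capsule, and Hyal5, a sperm hyaluronidase, had ratios close to 0 in C57BL/6J (0.08 and 0.06) and of 1.31 and 1.28 in FVB/N. Pgk2, the glycolytic enzyme of spermatogenic cells, had -0.21 and -0.18. These genes were chosen after their values were seen, and no difference between them was tested.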
